A study of Mus musculus with 10 samples.

Results

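Transcripts of the apolipoproteins, the protein coats of plasma lipoproteins, were measured in 10 FVB mice, an inbred laboratory strain, with 1 Illumina bead array per mouse. The labels call the samples liver hepatocytes and give liver as the tissue, without saying whether cells were isolated, and the samples are called livers here. The 10 genes Apoa1, Apoa2, Apoa4, Apoa5, Apob, Apoc1, Apoc2, Apoc3, Apoe and Apom were taken with every probe that carried their symbol in the platform annotation, which gave 16 of the 45281 probes on the array. In 6 mice LKB1, the kinase encoded by Stk11, had been overexpressed from a wild-type plasmid injected into the tail vein, with 1 injection per week for 8 weeks. The other 4 mice were untreated, so the injections, the plasmid and LKB1 came together in the treated group. The sources used here give neither the age and sex of the mice nor the promoter of the plasmid, the share of liver cells that took it up, the feeding state or the time of day of sampling.

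The liver makes most apolipoproteins. Apob is the structural protein of very low density lipoprotein and stays with one particle for its life, whereas the smaller apolipoproteins of the A, C and E classes can move between particles, where they activate or inhibit lipases and serve as ligands for receptors. Apoa1, Apoc3, Apoa4 and Apoa5 lie side by side in one gene cluster, and Apoe, Apoc1 and Apoc2 in another. LKB1 activates AMPK, a kinase that restrains lipid synthesis in liver, and the comparison shows how the transcripts of these secreted lipid carriers differed between livers with added LKB1 and untreated livers.

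All 16 apolipoprotein probes were detected on all 10 arrays (detection p under 0.05), and all 16 passed the filter that kept 16803 probes of 9725 genes. Each gene is described by its brightest probe unless another is named. Values are log2 intensities after background correction and quantile normalization, and since probes differ in how well they bind, levels are compared between mice and not between genes. Stk11 itself was at 9.60 ± 0.12 (SD, n = 4) in the untreated and at 9.66 ± 0.08 (SD, n = 6) in the LKB1 group, and whether its probe can bind a transcript of the plasmid was not tested. Of 8 measured hepatocyte markers, Ttr, Cyp2e1, Ahsg, Cps1, Hpd and Alb were detected on all 10 arrays, Tat on 9 and Fgb on 6, both at a low level. Of those on all 10 arrays, the Alb probe was the dimmest. Its deposited intensities ran from 192 to 854, against 5565 to 10556 for Hpd, the next dimmest. Whether this probe follows the amount of Alb transcript was not tested. Probes at background split the arrays into a set A (untreated 1 and 2, LKB1 1, 2 and 4) and a set B (untreated 3 and 4, LKB1 5, 6 and 7), each with mice of both groups. Alb (1.09, limma adjusted p = 0.00338) and Fgb (0.75, limma adjusted p = 0.00713) were higher in set B on the log2 scale in the fit with both terms. The other hepatocyte markers had an adjusted p over 0.05 for the set. Of these, Tat (0.46) and Ahsg (0.04) were higher and Cps1 (-0.17), Hpd (-0.15), Cyp2e1 (-0.15) and Ttr (-0.04) lower in set B. Of the 16803 kept probes, 133 differed between the sets at an adjusted p under 0.05. The sets were drawn from these same arrays, so the p-values for the set describe the split and do not test it.

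No apolipoprotein gene passed the test between LKB1 and untreated livers (0 of 10 genes and 0 of 16 probes at a limma adjusted p under 0.05), where 0% of all 9725 genes passed. At an unadjusted p under 0.05 there were 0 of 10, against 6.30% of all genes. The estimates were small. They ran from 0.952-fold for Apoc3 to 1.12-fold for Apob, and the median size of the log2 difference was 0.03 in the apolipoprotein genes and 0.08 over all genes. The signed median was -0.02, with 3 genes higher and 7 lower, against 0.00 and 49.2% higher over all genes. In every one of the 10 genes the groups overlapped, as they did in all but 1.32% of genes. The 95% confidence intervals of the 10 genes together reached from 0.793-fold to 1.28-fold. Changes of 1.5-fold in either direction lay outside the interval of all 10, as they did for 92.2% of all genes and for 97.2% of the 427 genes with a mean log2 intensity over 12.

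**Figure D1:**
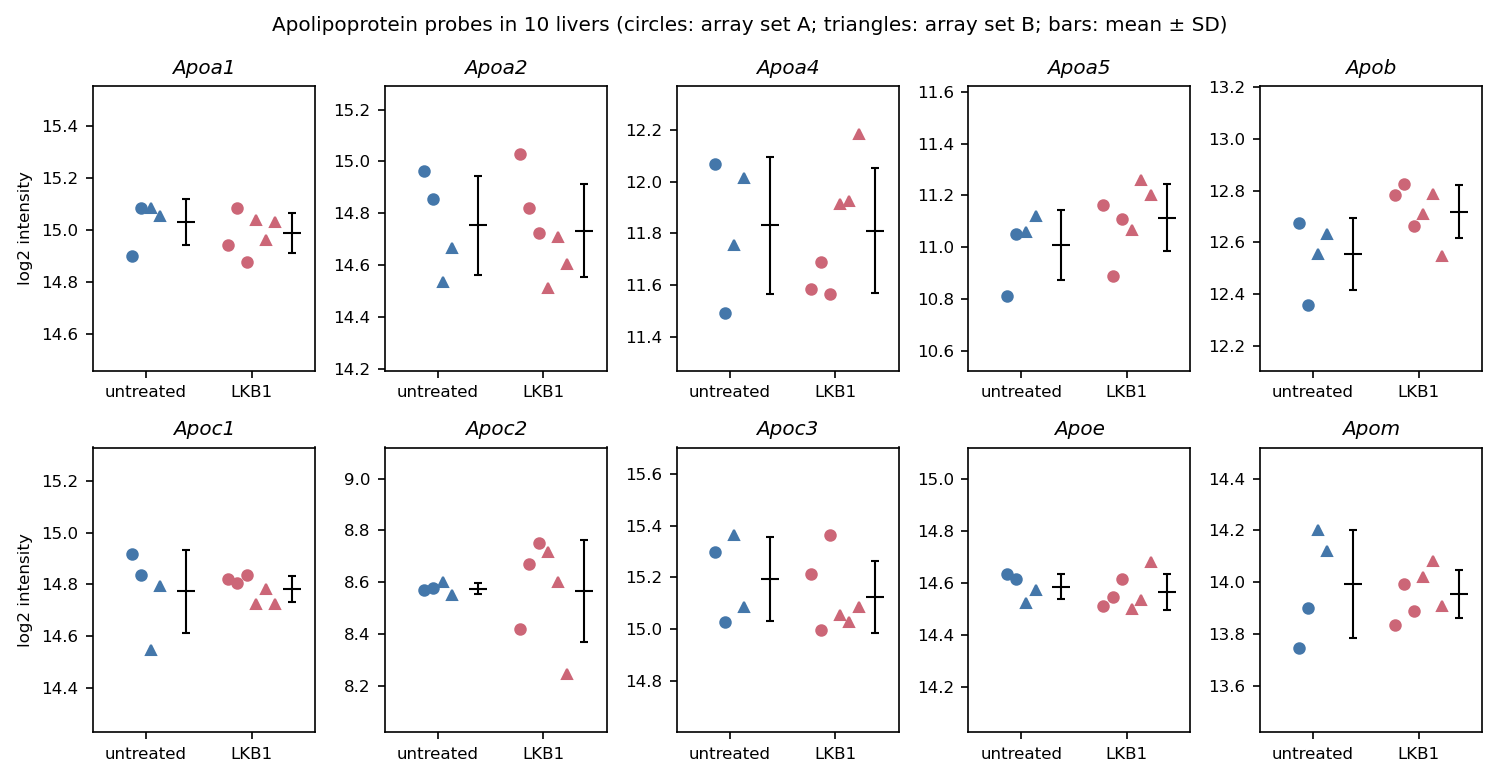
Log2 intensity of the brightest probe of each apolipoprotein gene in 4 untreated (blue) and 6 LKB1 (red) livers, 1 point per mouse, with circles for array set A, triangles for array set B and black bars for the group mean ± SD. Every panel spans the same height on the log2 axis, so that Apoa4 shows the widest and Apoe the narrowest scatter, and the groups overlap in every panel.

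Apob, which forms the backbone of very low density lipoprotein and of the chylomicron, had the smallest p of the 10 genes. Its log2 intensity was 12.67, 12.36, 12.56 and 12.63 in untreated livers and ran from 12.55 over a median of 12.75 to 12.82 in LKB1 livers. Of the LKB1 livers, all but replicates 4 and 7 lay above every untreated liver, and untreated replicate 2 was the lowest of all. The difference was 0.16 ± 0.09 (SE) on the log2 scale, or 1.12-fold with a 95% interval from 0.981 to 1.28, and the limma adjusted p was 0.792 (unadjusted p = 0.0864). It was 0.24 within array set A and 0.09 within set B, and 0.10 without untreated replicate 2. The promoter of Apob, from 250 bases before to 50 bases after the gene's start, is shown from RefSeq with the elements found in it in capitals, since Apob had the largest difference of the 10 genes. These are a match to the C/EBP motif ATTGCNNAA on the reverse strand, whose leftmost base lies 90 bases before the start, and the TATA motif TATAAA at 60 bases before it.
Apob, GRCm38.p6 chr12:7977427-7977726, plus strand: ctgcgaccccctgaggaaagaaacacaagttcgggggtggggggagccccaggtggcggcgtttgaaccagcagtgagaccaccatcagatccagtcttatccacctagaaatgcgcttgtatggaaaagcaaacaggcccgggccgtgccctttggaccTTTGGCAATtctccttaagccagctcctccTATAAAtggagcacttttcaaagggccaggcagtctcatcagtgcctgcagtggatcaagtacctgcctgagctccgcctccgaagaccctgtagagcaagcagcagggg
Searched on both strands, ATTGCNNAA occurred in 2.18% and TATAAA in 13.6% of 32851 promoter windows of the same length, and neither match overlaps the other. Of the 8 apolipoprotein genes with a window in that table, TATAAA was found in Apoa2, Apoa5, Apob and Apoe, and ATTGCNNAA in Apob alone. A direct repeat of the half-site for nuclear receptors with one base between, GGNCA followed by AGGNCA, was found in Apoc2 alone and in 0.801% of all windows.

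Apoa1, Apoa2 and Apom are proteins of high density lipoprotein. Apoa1, its main structural protein and the activator of the enzyme LCAT, had 14.90, 15.09, 15.09 and 15.05 in untreated livers and from 14.88 to 15.09 in LKB1 livers (median 15.00). All 10 livers lay within a 1.16-fold range, and the group difference was -0.04 ± 0.08 (SE; limma adjusted p = 0.947). Apom, which carries sphingosine-1-phosphate on high density lipoprotein, was at 13.75, 13.90, 14.20 and 14.12 in untreated livers and from 13.84 to 14.08 in LKB1 livers (median 13.95). The treated livers lay inside the untreated range, with a difference of -0.04 ± 0.10 (SE) at the brighter probe and 0.02 ± 0.11 (SE) at the dimmer one. Apoa2, another structural protein of these particles, was at 14.96, 14.85, 14.53 and 14.66 in untreated livers and from 14.51 to 15.03 in LKB1 livers (median 14.72). In both groups the livers of array set A were the higher ones: set B minus set A was -0.27 for this probe (adjusted p = 0.114 for the set in the limma fit with both terms). The group difference of Apoa2 was -0.02 ± 0.11 (SE) at this probe and -0.13 ± 0.10 (SE) at its dimmer probe.

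The next genes act on the breakdown of triglyceride in plasma by lipoprotein lipase. Apoa5, which promotes lipolysis and is made almost only in liver, was at 10.81, 11.05, 11.06 and 11.12 in untreated livers and ran from 10.89 to 11.26 in LKB1 livers (median 11.13). Untreated replicate 1 was the lowest liver, LKB1 replicate 2 lay next to it, and the difference was 0.10 ± 0.09 (SE; limma adjusted p = 0.883), or 0.04 without untreated replicate 1. Apoc2 is the obligate cofactor of lipoprotein lipase. Its brighter probe was at 8.57, 8.58, 8.60 and 8.55 in untreated livers, with an SD of 0.02, and from 8.24 to 8.75 in LKB1 livers (median 8.64), with an SD of 0.20. The treated livers thus lay on both sides of the tight untreated group, replicate 7 lowest and replicate 4 highest, and the means differed by -0.01 ± 0.10 (SE). The dimmer probe of Apoc2 lay near background and gave -0.20 ± 0.12 (SE; limma adjusted p = 0.817), the largest difference in size of the 16 probes.

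Apoc3, which inhibits lipoprotein lipase and the uptake of remnants, was at 15.30, 15.03, 15.36 and 15.09 in untreated livers and ran from 15.00 to 15.36 in LKB1 livers (median 15.07). In each group some livers lay at 15.21 or above and the others at 15.09 or below, and the difference of -0.07 ± 0.10 (SE; limma adjusted p = 0.932) was smaller than the SD of either group. Within array set A the difference of Apoc3 was 0.03, and within set B it was -0.17.

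**Figure D2:**
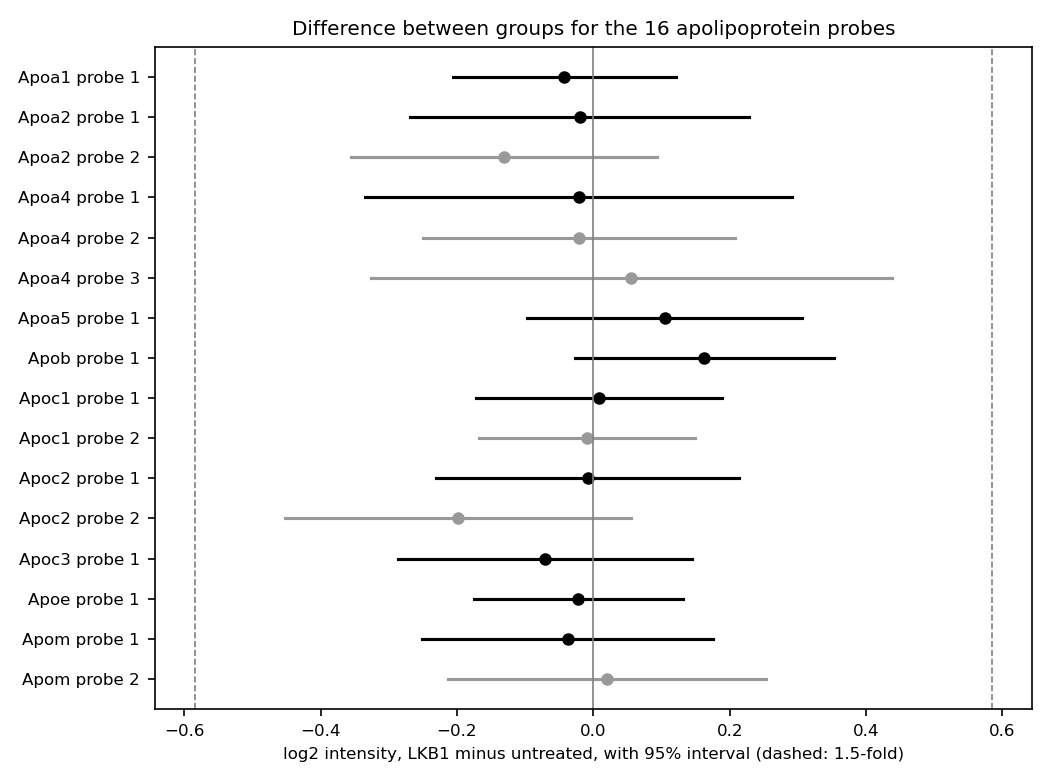
Difference in log2 intensity, LKB1 minus untreated, with its 95% confidence interval for the 16 apolipoprotein probes (limma, 4 against 6 livers), numbered from the brightest probe of a gene (black) to its dimmer ones (grey). All 16 intervals include 0, and all 16 lie inside the dashed lines at 1.5-fold, the widest reaching 1.35-fold upward at the dimmest probe of Apoa4 and 0.731-fold downward at the dimmer probe of Apoc2.

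Apoe, the ligand through which remnants are cleared by receptors of the LDL receptor family, had the narrowest spread of the 10 genes on the normalized scale. It was at 14.63, 14.62, 14.52 and 14.57 in untreated livers and from 14.50 to 14.68 in LKB1 livers (median 14.54). All livers fell within a 1.13-fold range, and the groups differed by -0.02 ± 0.07 (SE; limma adjusted p = 0.969). In the deposited intensities, which are not normalized between arrays, Apoe was not the narrowest. It ran from 19264.5 to 29190.6 there, and Apoa1 from 29073.5 to 37493.9. Macrophages also make Apoe. Of the listed Kupffer cell and macrophage markers, 9 were measured, all 9 had the higher mean with LKB1 (median difference 0.23 on the log2 scale, 0 called), and their mean level ran from 6.89 to 7.52 in untreated and from 7.34 to 7.77 in LKB1 livers. Cd5l was below the filter and Cd68 is not named in the annotation. Their part in the value of Apoe was not tested, and in bulk samples a different number of cells of a type and a different amount of RNA per cell cannot be told apart. Apoc1, an inhibitor of lipoprotein lipase that is encoded next to Apoe, was at 14.92, 14.84, 14.55 and 14.79 in untreated livers and from 14.72 to 14.84 in LKB1 livers (median 14.79). The untreated livers lay on both sides of the treated ones, with means of 14.77 ± 0.16 (SD, n = 4) and 14.78 ± 0.05 (SD, n = 6), and the other probe of Apoc1 gave a difference of -0.01.

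Apoa4, a protein of chylomicrons and high density lipoprotein that in mouse liver accompanies triglyceride secretion, varied most between mice on the normalized scale. Its brightest probe was at 12.07, 11.49, 11.76 and 12.01 in untreated livers and from 11.56 over a median of 11.80 to 12.18 in LKB1 livers, a 1.62-fold range over the 10 mice, and its dimmest probe spanned a 1.92-fold range. High and low livers occurred in both groups: untreated replicates 1 and 4 and LKB1 replicates 5, 6 and 7 were high, and untreated replicate 2 and LKB1 replicates 1, 2 and 4 were low. The groups therefore had nearly the same mean, 11.83 and 11.81, with a difference of -0.02 ± 0.14 (SE; limma adjusted p = 0.989). The low livers all belonged to array set A, and set B minus set A was 0.28 (adjusted p = 0.228 for the set in the limma fit with both terms). Between the groups, Apoa4 differed by -0.17 within set A and 0.12 within set B, and the difference of these differences had an adjusted p of 0.999 (limma).

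The promoter of Apoa4 is shown because Apoa4 was the most variable of the genes between mice on the normalized scale. It was also the single one of the 8 with a match to the HNF4 motif CAAAGTNCA. In the deposited intensities, not normalized between arrays, Apoa4 ran from 2542.5 to 5191.8. Apoa5, with a wider range in fold there, ran from 1425.9 to 3264.4. The match, in capitals, starts 182 bases before the start, and the motif was found on either strand in 1.41% of the 32851 windows.
Apoa4, GRCm38.p6 chr9:46240594-46240893, plus strand: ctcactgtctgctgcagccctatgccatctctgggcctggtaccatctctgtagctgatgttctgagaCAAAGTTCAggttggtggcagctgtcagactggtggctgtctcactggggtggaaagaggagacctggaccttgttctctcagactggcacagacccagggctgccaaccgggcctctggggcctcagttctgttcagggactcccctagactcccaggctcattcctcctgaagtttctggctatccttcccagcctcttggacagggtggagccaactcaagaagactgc

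Of the 10 genes 5 had more than 1 probe, which allowed the differences between mice to be read more than once. The 3 probes of Apoa4 ranked the mice in nearly the same order. After removal of the group means, the brightest probe correlated over the 10 mice with the second at r = 0.92 (rho = 0.93) and with the third at r = 0.94 (rho = 0.93), and the second with the third at r = 0.89 (rho = 0.82). The permutation p of these r, adjusted over the 7 probe pairs, was 0.00042, 0.000735 and 0.0011, and the adjusted permutation p of rho was 0.00143, 0.00143 and 0.0135. Without the 2 mice farthest from the median, r was 0.89, 0.96 and 0.85, and with values centred within array set and group it was 0.86, 0.95 and 0.90. A set holds 5 mice, too few for a correlation within it.

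The other multi-probe genes gave no such repeat. The probes of Apoc2 had r = 0.57 and rho = 0.50 (permutation p = 0.0831 and 0.144, adjusted p = 0.116 and 0.202), or r = 0.17 without the 2 farthest mice. Those of Apoc1 had r = 0.12 and rho = 0.09 (permutation p = 0.744 and 0.804, adjusted p = 0.744 and 0.804), and r = -0.76 without the 2 farthest mice. With values centred within array set and group, r was 0.24 for Apoc1 and 0.58 for Apoc2. Those of Apom had r = -0.32 and rho = -0.31 (permutation p = 0.369 and 0.385, adjusted p = 0.430 and 0.450), and r = -0.08 without the 2 farthest. With values centred within array set and group, r of Apom turned to 0.11, while that of Apoa2, given next, was -0.73. Those of Apoa2 ran against each other, with r = -0.67 and rho = -0.59 (permutation p = 0.0339 and 0.0800, adjusted p = 0.0593 and 0.140), and r = -0.46 without the 2 farthest. The scatter of Apoa2, Apom and Apoc1 between mice was therefore not seen again at another probe of the gene. With 10 mice, the lack of a correlation does not show that the probes differ. The means of the Apoa2 probes lay far apart, at 14.74 and 9.78.

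**Figure D3:**
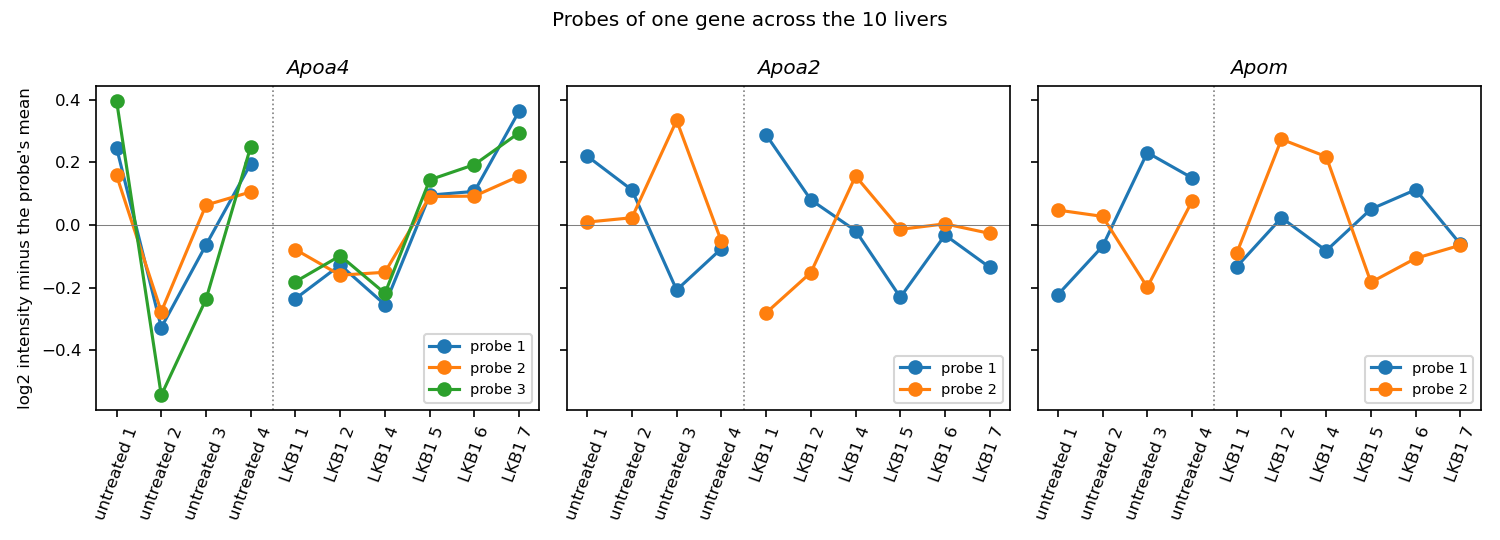
Log2 intensity of each probe minus its own mean over the 10 livers, by mouse, for Apoa4, Apoa2 and Apom, with probes numbered from the brightest and untreated mice left of the dotted line. The 3 Apoa4 probes go up and down together (r from 0.89 to 0.94), while the probes of Apoa2 (r = -0.67) and Apom (r = -0.32) do not.

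No pair of the genes, neighbours in a cluster included, passed the test for varying together. Among 45 pairs of the 10 genes, 20 had a positive and 25 a negative correlation over the mice after removal of the group means, and 0 passed an adjusted permutation p of 0.05, with 4 at an unadjusted p under 0.05. Of the 9 pairs within a cluster 4 were positive, with a median r of -0.03, and the median over all pairs was -0.08. The smallest p came from Apoa2 with Apoc1, which lie on different chromosomes, at r = 0.76 and rho = 0.87 (permutation p = 0.00688 and 0.0021, adjusted p = 0.159 and 0.0945), with r = 0.79 without the 2 farthest mice and r = 0.45 with values centred within array set and group. Apoa1 and its neighbour Apoc3 had r = -0.64 and rho = -0.57 (permutation p = 0.0492 and 0.0942, adjusted p = 0.553 and 0.865). For this pair r was -0.29 without the 2 farthest mice and -0.73 with values centred within array set and group. Over the 10 arrays, the genes outside the set whose profile was most like that of Apoa4 were Slc25a36 (r = 0.94), Pdpn (r = 0.92), Nbl1 (r = 0.91), Tnxb (r = 0.91) and Espn (r = 0.90). The genes most like the mean of the 10 apolipoprotein genes were Lgals8 (r = 0.91), Arsg (r = 0.85), Zmym2 (r = 0.84), Bcar3 (r = 0.83) and Tlcd4 (r = 0.82). These r are the highest among all measured genes, are given as a description only, and share the same arrays and array sets.

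The probes of Apoa1, Apoc3 and Apoe, the brighter probe of Apoa2 and both probes of Apoc1 were among the 50 brightest in every liver. The brightest and the 50th brightest probe lay only 0.95 apart on the normalized log2 scale, where quantile normalization sets a probe's value by its rank on the array. In the deposited intensities Apoc3 ranged from 29420 to 49480 and was the brightest probe of untreated replicate 3 and of LKB1 replicate 4. Whether intensity still follows transcript number in proportion at this height was not tested. The dimmer probes of Apoa2 and Apom and the probes of Apoa4, Apoa5, Apob and Apoc2 lay lower on the scale, and their intervals excluded 1.5-fold as well.

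The scale chosen for the arrays moved all 10 genes together. With array medians made equal and no quantile step, 10 of 10 lay lower in LKB1 livers, with a median of -0.14, while the median over all genes was -0.16. With arrays aligned on the 500 brightest probes, 9 of 10 lay higher, with a median of 0.08 against 0.07 for all genes. Each of these scales only shifts a whole array by a constant, so the difference of every gene moves by the same amount. The distance of the apolipoprotein set from all genes, within 0.02, was therefore fixed in advance between them. Of the 10 genes, 0 were called on any of them. With no normalization between arrays, intervals reached down to 0.620-fold, and 4 of 10 excluded 1.5-fold.

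**Figure D4:**
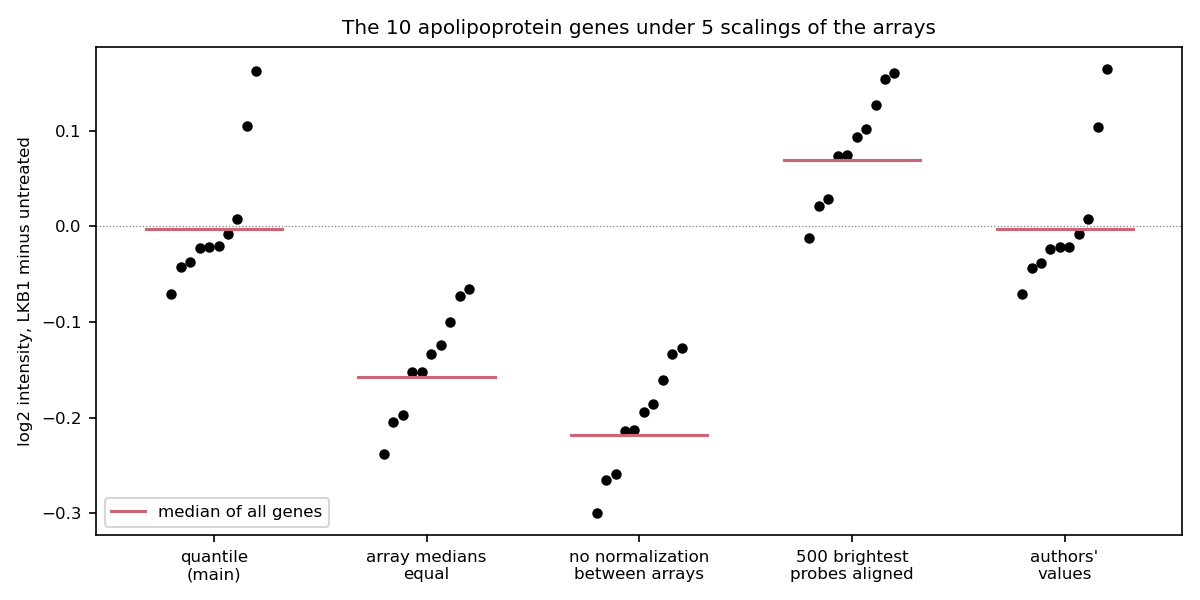
Log2 difference, LKB1 minus untreated, of the 10 apolipoprotein genes (points, sorted within each scaling) under 5 scalings of the arrays, with the median of all 9725 genes as a red line. The points shift with the red line, from a median of -0.02 under quantile normalization to -0.20 with no normalization between arrays and 0.08 with the 500 brightest probes aligned. Between equal medians, no normalization and the 500 brightest probes aligned, the shift is the same for every gene by construction.

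Genes that act with the apolipoproteins were read from the same fit. Of 68 listed genes 53 were measured and 0 passed over all genes. In LKB1 livers 31 were higher and 22 lower, with a median of 0.02, where 49.2% of all genes were higher. At an unadjusted p under 0.05 (limma) there were 5 of the 53, against 6.30% of all genes. In 1 of the 53 the groups did not overlap, against 1.32% of all genes. Their estimates spread more widely than those of the apolipoproteins themselves, which the plot of the pathway lists shows. The lists were not matched to the 10 genes in number or brightness. The median SD over the 10 livers was 0.10 in genes with a mean log2 intensity over 12 and 0.17 in all genes.

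Among 12 measured genes of particle assembly and secretion, 8 were higher and 4 lower (median 0.04). Mttp, which loads lipid onto Apob, was at 0.09 ± 0.09 (SE), and Tm6sf2, which takes part in the lipidation of very low density lipoprotein, at 0.10 ± 0.10 (SE). Plin2, the coat protein of lipid droplets, had the smallest p of this list. It was at 9.57, 9.16, 9.13 and 9.44 in untreated livers and from 9.32 over a median of 9.72 to 10.15 in LKB1 livers, a difference of 0.37 ± 0.16 (SE; limma adjusted p = 0.722). Its LKB1 replicates 4 to 7 lay above every untreated liver, and its difference was 0.09 in array set A against 0.65 in set B. Dgat2, an enzyme of triglyceride synthesis, was at -0.11 ± 0.09 (SE). Of 7 other proteins carried on lipoproteins 3 were higher and 4 lower (median -0.02), among them Apoc4 (-0.06 ± 0.07, SE), which lies in the cluster of Apoe, and the paraoxonases Pon1 (-0.06 ± 0.08, SE) and Pon3 (0.09 ± 0.12, SE).

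Remodelling enzymes and regulators of lipases had 4 genes higher and 4 lower of 8 measured (median 0.02). Angptl8, a liver hormone that is induced by feeding and inhibits lipoprotein lipase in muscle, had the largest estimate of all the lists. It was at 10.54, 10.46, 9.95 and 9.17 in untreated livers and from 9.60 over a median of 11.27 to 12.15 in LKB1 livers. All LKB1 livers except replicate 7 lay above every untreated one, and the difference was 1.08 ± 0.42 (SE), or 2.12-fold (95% interval 1.12 to 4.00, limma adjusted p = 0.678). Without untreated replicate 4 it was 0.80. Lpl, lipoprotein lipase itself, was at 0.43 ± 0.21 (SE; limma adjusted p = 0.754), and its other probe was detected on no array. Angptl4, a fasting-induced inhibitor of the same lipase, was at -0.35 ± 0.25 (SE), with -0.68 in array set A and -0.03 in set B. Its untreated livers had an SD of 0.07 and its LKB1 livers of 0.58, and without LKB1 replicate 7 the difference was -0.57.

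**Figure D5:**
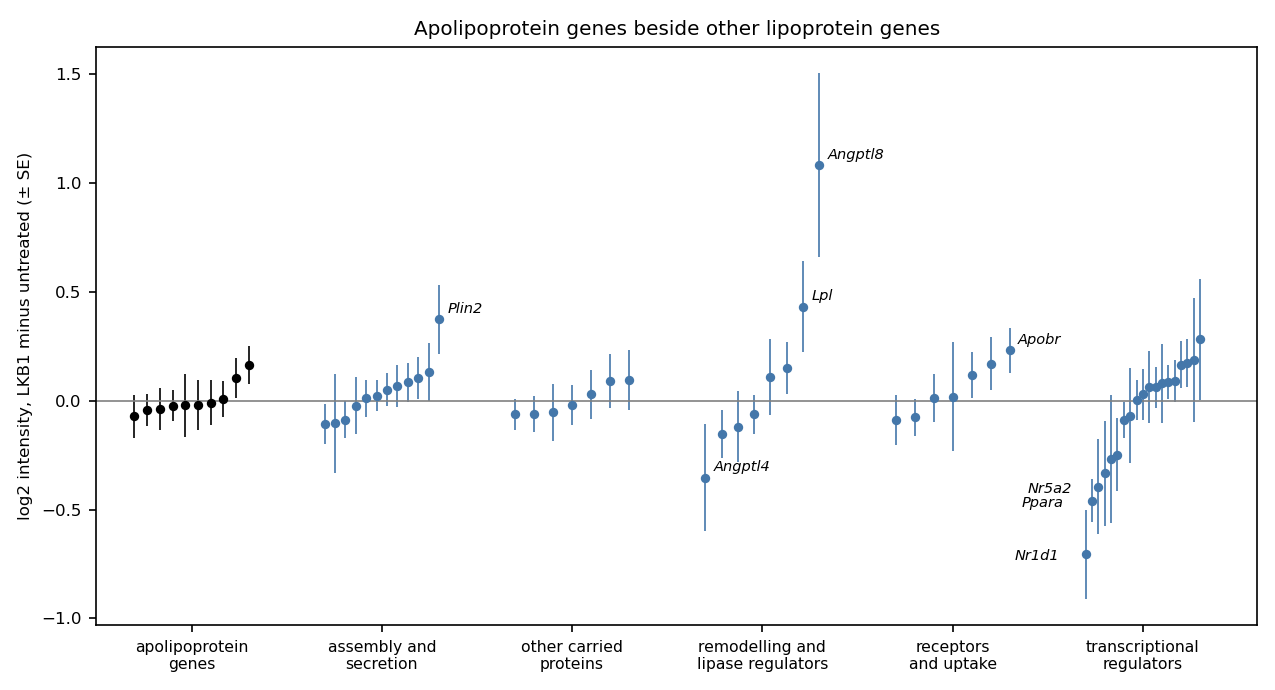
Log2 difference, LKB1 minus untreated, with its SE for the 10 apolipoprotein genes (black) and the 53 measured genes of 5 lists of lipoprotein genes (blue), sorted within each list. The apolipoprotein genes lie between -0.07 and 0.16, while single genes of the lists reach 1.08 (Angptl8) and -0.70 (Nr1d1), and no gene passed the test over all genes.

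Of 7 measured receptors and uptake genes 5 were higher and 2 lower (median 0.02). Apobr, a receptor for Apob that is found on macrophages, lay near background and was at 0.23 ± 0.10 (SE; limma adjusted p = 0.735), with 0.07 on its other probe. Scarb1, the receptor that takes up cholesterol from high density lipoprotein, was at 0.17 ± 0.12 (SE; 0.02 at a second probe), and Lsr, a receptor for lipolysed particles, at 0.12 ± 0.11 (SE). Scarb1 was at 0.10 without LKB1 replicate 5, and Lsr at 0.040 without untreated replicate 1.

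Transcription factors and coregulators known to act on apolipoprotein genes were 11 higher and 8 lower of 19 measured (median 0.03). Ppara, the fatty acid sensor that in humans activates the genes of Apoa1, Apoa4 and Apoa5, had the smallest p of all the lists. It was at 6.63, 6.89, 6.62 and 6.95 in untreated livers and from 6.08 over a median of 6.35 to 6.42 in LKB1 livers. All 6 LKB1 livers lay below all 4 untreated ones, and the difference was -0.46 ± 0.10 (SE), or 0.728-fold (95% interval 0.628 to 0.844, limma adjusted p = 0.353). It was -0.39 in array set A and -0.52 in set B. The Ppara probe was detected on every array but lay near background, with deposited intensities from 65.9 to 143. Those of the dimmer Apoc2 probe ran from 54.1 to 114. Under other settings the difference of Ppara kept its sign and ran from -0.34 (offset of 50) to -0.65 (no normalization between arrays). Nr1d1, the clock repressor REV-ERBα, which represses Apoc3, was at -0.70 ± 0.20 (SE; limma adjusted p = 0.517), or -0.54 without LKB1 replicate 6. Nr5a2, a nuclear receptor that activates Apom, was at -0.39 ± 0.22 (SE), and its other probes gave -0.38 and -0.02. Without untreated replicate 4 the difference of Nr5a2 was -0.25. Hnf4a, the main hepatic activator of the apolipoprotein genes, was at 0.03 ± 0.12 (SE). Beside these estimates, Apoa4, Apoa5, Apoc3 and Apom differed by -0.02, 0.10, -0.07 and -0.04, and whether the factors and these genes are linked in these livers was not tested.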

How the data were processed

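Each array was taken as 1 mouse, since the design text counts mice, and p-values measure the spread between these livers. One LKB1 sample, titled with the gene's name alone, was read as replicate 1. The deposited intensity of each probe is an average signal, not normalized between arrays, with a deposited detection p-value, per the file headers. The authors' processed values were read as log2, from a slope of 0.952 to 1.05 on log2 intensity. Every column had the same median (4.36), and ranks matched the intensities. The submitters' processing notes name lumi, without a version.

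Intensities were corrected by normexp from the detection p-values (offset 16) and quantile-normalized (neqc, limma 3.58.1, R 4.3.3). Of 45281 probes, 34885 had 1 symbol in GEO's platform annotation, 18 several, and 10378 were not listed. Kept probes had a detection p under 0.05 on 4 arrays or more, and a gene stands for its brightest kept probe. Groups were compared with lmFit and eBayes, two-sided, without covariates. The p-values were Benjamini-Hochberg adjusted at 0.05, with all kept probes as the family, and the smallest was 0.166. Correlations over mice used group-centred values and 100000 permutations, two-sided, adjusted over 45 gene pairs or 7 probe pairs. Array sets come from clustering 24495 probes detected on no array into 2 sets, a number that was chosen. Their background profiles had a mean rho of 0.522 inside a set and 0.482 across sets, and neither labels nor headers name them as batches. Promoter windows are RefSeq's, build GRCm38.p6, with 12 windows for 8 members.

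Members, gene lists, markers and tests were chosen with earlier results of these data known. Named genes are the members, Stk11, the 3 of smallest p in each list, and the 5 most like Apoa4, the member of largest SD, and most like the members' mean. Mttp, Hnf4a, the motifs and the alignment on the 500 brightest probes were chosen after values were seen. The fits were tested on simulated data. Other filters, scalings, probe rules, array weights, the array set and the replicate number as terms, and leaving out each array were tried.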

Additional observations from a re-analysis of the deposited data

Results flagged for a closer look

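In 4 of 62 groups of livers tested, 1 liver stood apart from the others of its group by Dixon's criterion, where chance gives about 1 in 20, or 3.1 of 62. Apoa1 was low in untreated replicate 1, at 14.90 against 15.05 to 15.09 in the other untreated livers. Apoc4 was low in untreated replicate 2, at 14.44 against 14.50 to 14.51. Angptl4 was high in LKB1 replicate 7, at 11.59 against 10.05 to 10.62 in the other LKB1 livers. Nr1d1 was low in LKB1 replicate 6, at 7.39 against 8.24 to 8.70.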

How the results depend on the processing

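No apolipoprotein gene was called under any of the 22 other settings tried, and no gene of the lipoprotein lists under the 21 run for them (all but the mean of the probes of a gene). Of these settings 1 (500 brightest probes aligned) was chosen after seeing the data. Over all genes, 11 passed with array medians made equal and 11 with no normalization between arrays, and from 0 to 1 with 1 array left out (1 without LKB1 replicate 2). The median of the members was -0.142 with array medians made equal, -0.204 with no normalization between arrays and 0.084 with the 500 brightest probes aligned (all genes: -0.157, -0.218 and 0.069), and it ran from -0.024 to 0.016 with 1 array left out. Gene pairs that varied together numbered 3 with array medians made equal, 12 with no normalization, and from 0 to 1 with 1 array left out (1 without LKB1 replicate 1). The cause of these differences was not tested.

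Signs of values near 0 turned. With array medians made equal the values were Apoa5 at -0.12, Apob at -0.066, Apoc1 at -0.10, Tm6sf2 at -0.097, Pon3 at -0.010, Lsr at -0.070 and Stk11 at -0.15. With no normalization they were Apoa5 at -0.19, Apob at -0.13, Apoc1 at -0.16, Tm6sf2 at -0.16, Pon3 at -0.071, Scarb1 at -0.015, Lsr at -0.13 and Stk11 at -0.21. Array weights gave Apoc1 at -0.017, and the mean of the probes of a gene gave Apoa4 at 0.0044 and Apoc1 at -0.00063. The alignment on the 500 brightest probes gave Apoa1 at 0.15, Apoa2 at 0.093, Apoc2 at 0.029, Apoc3 at 0.074, Apoe at 0.074 and Apom at 0.022. With 1 array left out, Apoa2 ran from -0.094 to 0.049, Apoa4 from -0.13 to 0.057, Apoc1 from -0.067 to 0.056, Apoc2 from -0.045 to 0.056 and Apom from -0.12 to 0.032. Values that kept their sign but moved by over 1.5 times ran from -0.087 to -0.020 for Apoa1, 0.039 to 0.15 for Apoa5, 0.097 to 0.20 for Apob, -0.13 to -0.014 for Apoc3, -0.045 to -0.0059 for Apoe, -0.17 to -0.039 for Dgat2, 0.054 to 0.15 for Tm6sf2, -0.097 to -0.018 for Pon1, 0.037 to 0.16 for Pon3 and 0.016 to 0.11 for Stk11.

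The replicate numbers 1, 2 and 4 occur in both groups, and deviations of same-numbered mice correlated at 0.15, 0.24 and -0.17. These values were not compared with those of differently numbered mice, and whether a shared number marks a pair was not tested. With the replicate block, 0 genes were called, the intervals of 9 of 10 members excluded 1.5-fold, and the fit gave Apoa2 at 0.031, Apoc1 at -0.028, Apoc2 at 0.047, Apoc3 at 0.053 and Pon1 at 0.0046. Other values moved further under it without turning: Apoa4 to -0.24, Plin2 to 0.071, Angptl4 to -0.70, Lpl to 0.27, Lsr to 0.046, Dgat2 to -0.019, Tm6sf2 to 0.025, Pon3 to 0.27 and Nr5a2 to -0.24.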
